A study of Mus musculus with 112 samples.

Results

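DNA methylation (DNAme) was followed at the promoters of 10 imprinted mouse genes, Peg3, Plagl1, Impact, Zrsr1, Nap1l5, Peg13, Nnat, Kcnq1ot1, Mest and Snrpn. It was read in sperm of cigarette smoke (CS)-exposed and unexposed males and in sperm and brain of sons of males treated alike. The genes were listed by name, as genes known to carry maternal methylation at their start. No measured value entered the rule, but earlier results of these data were known when the list was made. They are 10 of 22258 genes with a scoreable promoter in at least 1 of the 3 kinds of sample. For each gene, every CpG cytosine within 1 kb of an annotated transcription start (GENCODE M21, mm10) was taken, on either strand. Together the windows held 402 CpG cytosines with a value in any library, of which F0 sperm had 176 that could be scored, F1 sperm 78 and F1 brain 186. The question was where each of these promoters stood in the 3 kinds of sample, and whether paternal CS or loss of NRF2 moved any of them.

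An imprinted gene is expressed from 1 parental copy. At maternally methylated promoters the oocyte lays down methylation on its copy, sperm carries none, and after fertilization the difference escapes the erasure that clears most of the genome. Proteins such as ZFP57, which binds methylated TGCCGC, hold the mark on the maternal copy during early development. Somatic tissues, brain included, then carry both a methylated and an unmethylated copy, and many imprinted genes act in growth, feeding and behaviour. Germ cells of a male erase the mark again, so his sperm lacks it.

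The assay was reduced representation bisulfite sequencing (RRBS), in which DNA is cut at CCGG and TCGA, the sites of MspI and TaqI, and unmethylated cytosines are converted before sequencing. F0 sperm came from C57BL/6J wild type (WT) males, unexposed (control WT, n = 10) or exposed to CS for 60 days from 6 to 7 weeks of age and sampled shortly afterwards (smoked WT, n = 9). Other CS-exposed WT males were sampled after increasing times without smoke, namely recovery 1 (9 males), recovery 2 (10) and recovery 3 (10), the first 28 and the last 171 days after exposure. By the study's methods the control WT males were sampled when the smoked WT males were. Recovery males were therefore older than their controls, and age cannot be told apart from time without smoke. Nrf2-/- males on the same background, which lack a working NRF2, a transcription factor of the antioxidant defence, were unexposed (control Nrf2-/-, n = 10) or exposed for the same 60 days (smoked Nrf2-/-, n = 9). Sons gave F1 sperm (6 with a control WT and 7 with a smoked WT sire) and F1 brain, dissected as prefrontal cortex (8 for each of the sire groups control WT, control Nrf2-/-, smoked WT and smoked Nrf2-/-). Sons were 14 to 17 weeks old, had CAST/EiJ mothers, and by the breeding carry a single targeted Nrf2 allele where the sire was Nrf2-/-. Their F1 groups are named here by the sire. By the study's methods, sires met females about a week after exposure. The smoked WT and control WT males of F0 sperm had been sampled before then. A control WT brain sample also carries an NRF-/- strain label. It was kept by its title, and which library holds it is unknown. The labels list the libraries of a group as separate samples and give no batch. In F0 sperm and in F1 brain the library numbers of the column headings form separate blocks for WT and Nrf2-/-. The order of these numbers cannot be told apart from genotype.

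A promoter value is the mean methylation percent of a library over the scoreable cytosines of a window, adjusted for the cytosines that the library lacks, so that a value can fall slightly below 0. A cytosine counted as scoreable where no group of its kind of sample had fewer than 4 libraries with a value. Between 510212 and 1855546 positions had a value in a library, and the read depth behind a percent is unknown. Windows with at least 3 scoreable cytosines were tested: 8 of the 10 genes in F0 sperm, 7 in F1 sperm and all 10 in F1 brain. Germline genes, which are unmethylated in sperm and methylated in somatic cells, stood as the tissue labels say. Of the 8 listed, 4 could be compared, namely Dazl, Ddx4, Slc25a31 and Hormad1. In control WT sons they stood at -0.224%, 1.94%, 0.878% and 10.8% in sperm and at 86.1%, 61.98%, 89.7% and 87.5% in brain, and limma called all 4 higher in brain. These values cover the cytosines scoreable in both tissues, which at Dazl are 9 of the 45 scored in brain. Over all 45 Dazl stood at 27.1% in control WT brain.

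In 4 brain libraries the level was lower over most of what was measured. Smoked WT column 8 and smoked Nrf2-/- columns 2, 4 and 5 (columns are named by their order in the table) had a mean of 27.5% to 32.2% over all their positions, against 34.1% to 41.8% in the 28 others. Brain differences between sire groups are therefore given with and without these 4, a choice made after seeing the data. Brain levels, levels along the DNA and nearest profiles use all libraries with a value. Control Nrf2-/- and control WT brain held none of them.

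Stretches of the reference (GRCm38, mm10) that held scored cytosines are printed to show what was read. All run 5′ to 3′ on the strand of the gene and lie outside annotated UTRs, and capitals mark the reference CCGG and TCGA cut sites where reads begin. Mest had the highest level in brain after Impact and Kcnq1ot1 the lowest, Nap1l5 and Plagl1 are printed where the brain level changed little from cytosine to cytosine, and Zrsr1 and Peg13 where it changed most or was lowest.
Mest, chr6:30732794-30732886, plus strand: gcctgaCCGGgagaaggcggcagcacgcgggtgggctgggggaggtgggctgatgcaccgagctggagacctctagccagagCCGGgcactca
Nap1l5, chr6:58906626-58906886, minus strand: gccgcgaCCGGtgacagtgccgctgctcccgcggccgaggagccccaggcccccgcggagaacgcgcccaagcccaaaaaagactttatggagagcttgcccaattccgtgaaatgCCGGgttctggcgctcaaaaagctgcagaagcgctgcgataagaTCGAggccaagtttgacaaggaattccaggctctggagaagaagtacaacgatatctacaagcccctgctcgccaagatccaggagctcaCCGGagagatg
Plagl1, chr10:13091028-13091198, plus strand: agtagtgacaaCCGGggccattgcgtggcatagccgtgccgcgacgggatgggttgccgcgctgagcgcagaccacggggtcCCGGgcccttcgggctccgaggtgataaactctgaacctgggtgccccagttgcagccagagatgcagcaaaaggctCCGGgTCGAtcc
Peg13, chr15:72809684-72809889, minus strand: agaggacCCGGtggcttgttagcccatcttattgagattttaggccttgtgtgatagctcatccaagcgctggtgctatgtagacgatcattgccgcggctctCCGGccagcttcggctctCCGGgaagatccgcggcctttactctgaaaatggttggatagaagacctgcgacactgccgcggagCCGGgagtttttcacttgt
Zrsr1, chr11:22971885-22972000, plus strand: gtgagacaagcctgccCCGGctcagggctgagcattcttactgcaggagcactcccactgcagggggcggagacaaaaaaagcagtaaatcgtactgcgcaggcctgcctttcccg
Kcnq1ot1, chr7:143295564-143295624, minus strand: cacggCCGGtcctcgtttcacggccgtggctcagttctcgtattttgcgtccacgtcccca
In these stretches the brain means of single cytosines ran from 52.6% to 80.8% in Mest, from 21.2% to 27.3% in Nap1l5, from 35.2% to 40.8% in Plagl1, from 0% to 87.7% in Peg13, from 0.974% to 18.8% in Zrsr1 and from 10% to 12.2% in Kcnq1ot1. The highest F0 sperm mean in any of them was 5.94%, in Mest.

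The transcriptional regulators of the set, Peg3 and Plagl1, were close to 0 in sperm and intermediate in brain. Peg3, a zinc finger protein, starts at position 6730421 of chromosome 7 on the minus strand and was scored at 8 cytosines in its 5′ UTR. Over the 67 F0 sperm libraries it ranged from 0% to 3.84% (median 0.481%), and its group means lay between 0.356% in smoked Nrf2-/- and 0.986% in recovery 2. F1 sperm of control WT stood at 0.939% ± 0.718 (SD, n = 4 with a value) and that of smoked WT at 0.910% ± 0.925 (n = 7). All sperm groups overlapped one another. In control WT brain Peg3 stood at 27.2% ± 4.36 (n = 8), from 18.03% through a median of 27.01% to 33.01%. The other brain groups had 31.8% ± 7.25 (smoked WT), 33.3% ± 6.80 (control Nrf2-/-) and 27.3% ± 7.16 (smoked Nrf2-/-), and the lowest brain library, at 15.1%, lay above every sperm library.

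Plagl1, a zinc finger transcription factor that restrains cell growth, starts between 13090788 and 13090835 on the plus strand of chromosome 10 and was scored at 57 cytosines in F0 sperm and brain, from just upstream into the first intron, and at 12 in F1 sperm. Over 64 F0 sperm libraries it ranged from -0.0527% to 5.53% (median 0.641%), with group means of 0.591% to 1.19%. The 4 control WT F1 sperm libraries with a value had 1.91%, 0%, 2.23% and 0%, and the 5 smoked WT libraries 0.765%, 0.980%, 0%, 2.48% and 1.97%. Both generations of sperm were thus within a few points of 0 at this gene. Brain stood at 43.7% ± 6.00 in control WT (32.8% to 53.4%, median 43.7%), 44.7% ± 8.08 in smoked WT, 47.4% ± 3.18 in control Nrf2-/- and 36.3% ± 9.85 in smoked Nrf2-/- sons (n = 8 each).

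Snrpn and Zrsr1 encode proteins of RNA splicing, SmN and a relative of the small U2AF subunit. Snrpn was scored only at its start at 60005111 of chromosome 7 (minus strand), at 10 cytosines in the 5′ UTR and adjoining introns (4 in F1 sperm). Its second window, around 60140219, could not be scored. F0 sperm ranged from -0.324% to 5.41% over 65 libraries (median 0.739%), and F1 sperm from -0.380% to 6.76% over 13. The control WT F1 sperm mean of 1.89% ± 2.90 (n = 6) rested largely on columns 3 and 6, at 6.76% and 4.17%. In brain it was 27.9% ± 10.9 in control WT, 22.8% ± 12.1 in smoked WT, 24.96% ± 2.75 in control Nrf2-/- and 19.3% ± 12.2 in smoked Nrf2-/- sons (n = 8 each), so that control Nrf2-/- libraries lay much closer together than those of the other groups.

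Zrsr1, a retrogene inside an intron of Commd1, starts at 22972005 of chromosome 11 (plus strand) and was scored at 47 cytosines in F0 sperm, at 14 in F1 sperm and at 53 in brain. F0 sperm ranged from -0.0102% to 4.23% over 67 libraries (median 0.773%). Control WT F1 sperm had 1.03%, 0.00125%, 0.649%, 1.43% and 0% in its 5 libraries with a value. Brain was the tightest of the set in control WT, at 40.8% ± 2.40 (38.8% to 45.2%, median 39.7%, n = 8), with 41.2% ± 8.01 in smoked WT, 40.1% ± 2.83 in control Nrf2-/- and 34.5% ± 6.23 in smoked Nrf2-/- sons.

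Nap1l5, a retrogene of the nucleosome assembly protein family inside an intron of Herc3, starts at 58907076 of chromosome 6 (minus strand). Its 17 scored cytosines, 7 of them scored in F1 sperm, lie in its coding exon. In F0 sperm it ranged from -0.0623% to 3.77% over 67 libraries (median 0.280%). In F1 sperm, 3 of the 4 control WT libraries with a value were at 0% and the other at 1.59%, while smoked WT libraries had 0%, 5.26%, 0%, 5.30%, 0% and 10%. F1 sperm libraries thus ranged more widely here than those of F0 sperm, over fewer cytosines. Brain means were 27.1% ± 4.67 in control WT, 24.9% ± 9.99 in smoked WT, 27.3% ± 8.91 in control Nrf2-/- and 18.5% ± 9.29 in smoked Nrf2-/- sons (n = 8 each).

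Nnat encodes neuronatin, a small membrane protein of neurons and endocrine cells, and lies in an intron of Blcap on chromosome 2, with starts from 157560078 to 157560130 (plus strand). Within 1 kb it could be scored only in brain, at 6 cytosines of a single read start. The same 6 positions had a mean of 0.668% in F0 sperm, from up to 37 libraries, too few in some groups for a test. Within 2 kb, over other cytosines as well, control WT stood at 10.8% ± 2.71 in F0 sperm (10 cytosines, n = 10), at 15.4% ± 1.25 in F1 sperm (6 cytosines, n = 6) and at 34.97% ± 6.24 in brain (22 cytosines, n = 8), so sperm was not near 0 in that wider window. In brain, within 1 kb, Nnat had the largest SD of all members in both control groups, but not in the smoked groups. It was 28.3% ± 20.5 in control WT, with libraries from 5.88% to 66.03% and a median of 21.4%, 23.6% ± 11.3 in smoked WT, 31.7% ± 16.1 in control Nrf2-/- and 15.1% ± 12.1 in smoked Nrf2-/- sons (n = 8 each).

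Mest, of the alpha/beta hydrolase family, has a start at 30733506 and others downstream, at 30738050 to 30738053 of chromosome 6 (plus strand). Within 1 kb only the upstream start could be scored, at 6 cytosines ahead of it (4 in F1 sperm). There it had the highest mean of the 7 near-unmethylated genes in every F0 sperm group, with libraries from -0.409% to 11.1% (median 1.52%, n = 67). In F1 sperm it was 5.40% ± 2.38 (n = 4) in control WT, again the highest, and 2.51% ± 2.41 (n = 6) in smoked WT, below Nap1l5. It was also the second highest in brain, at 68.3% ± 8.53 in control WT, 62.2% ± 13.1 in smoked WT, 65.8% ± 7.12 in control Nrf2-/- and 56.1% ± 12.73 in smoked Nrf2-/- sons (n = 8 each). The other start could be scored when the window was widened to 2 kb. Control WT F0 sperm (n = 10) then stood at 0.981% ± 1.22, F1 sperm (n = 4) at 1.57% ± 1.78 and brain (n = 8) at 31.5% ± 4.78, so that the 2 starts of Mest differed in brain.

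The non-coding RNAs of the set are Peg13, transcribed from an intron of Trappc9, and Kcnq1ot1, an antisense RNA that silences neighbouring genes in cis. Peg13 starts at 72810324 of chromosome 15 (minus strand) and was scored at 28 cytosines in F0 sperm, at 27 in F1 sperm and at 19 in brain. It ranged from -0.0577% to 1.99% over 66 F0 sperm libraries (median 0.637%), the narrowest range of the members tested. Control WT F1 sperm stood at 1.24% ± 0.930 (n = 4) and that of smoked WT at 1.18% ± 1.68 (n = 6). In brain it was 35.4% ± 4.28 in control WT, 35.9% ± 11.6 in smoked WT, 39.6% ± 2.64 in control Nrf2-/- and 29.7% ± 11.9 in smoked Nrf2-/- sons (n = 8 each).

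Kcnq1ot1 starts at 143296549 of chromosome 7 (minus strand), and its 7 scored cytosines lie 931 to 978 bp into the transcript. They were scoreable only in brain. In F0 sperm the same positions had a mean of 0.120% over 31 or 32 libraries. Kcnq1ot1 was the lowest member in brain, with 9.97% ± 8.17 for control WT, 13.7% ± 13.6 for smoked WT and 11.8% ± 10.8 for control Nrf2-/- (n = 8 each), against 6.88% ± 6.32 for smoked Nrf2-/- sires (n = 7), and was at 0% in single libraries of every brain group. Within 2 kb, control WT stood at 0.882% ± 2.19 in F0 sperm (12 cytosines, n = 10) and at 1.85% ± 1.17 in F1 sperm (8 cytosines, n = 5). The control WT brain level there was 20.9% ± 4.86, over 19 cytosines.

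Impact, a regulator of translation under amino acid shortage, went against its label in sperm. Within 1 kb of its start (position 12971923 of chromosome 18, plus strand) only 3 cytosines were scoreable, and F0 sperm stood at 45.1% ± 9.58 (n = 10) in control WT and ranged from 27.5% to 63.9% over 67 libraries. Counted from the start, the cytosine at -346 bp had a mean of 90.8% in F0 sperm, that at -22 bp 45.5% and that at 4 bp 12.4%. The average thus covered positions that differed widely. In brain Impact was the highest member, with 79.5% ± 7.15 for control WT and 78.3% ± 11.9 for control Nrf2-/- sires (n = 8 each) and with 77.6% ± 7.48 for smoked WT and 73.8% ± 13.6 for smoked Nrf2-/- sires (n = 7 each). Within 2 kb, where F0 sperm had 27 scoreable cytosines, F1 sperm 18 and brain 40, it stood at 5.72%, 1.496% and 22.3% in control WT.

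**Figure D1:**
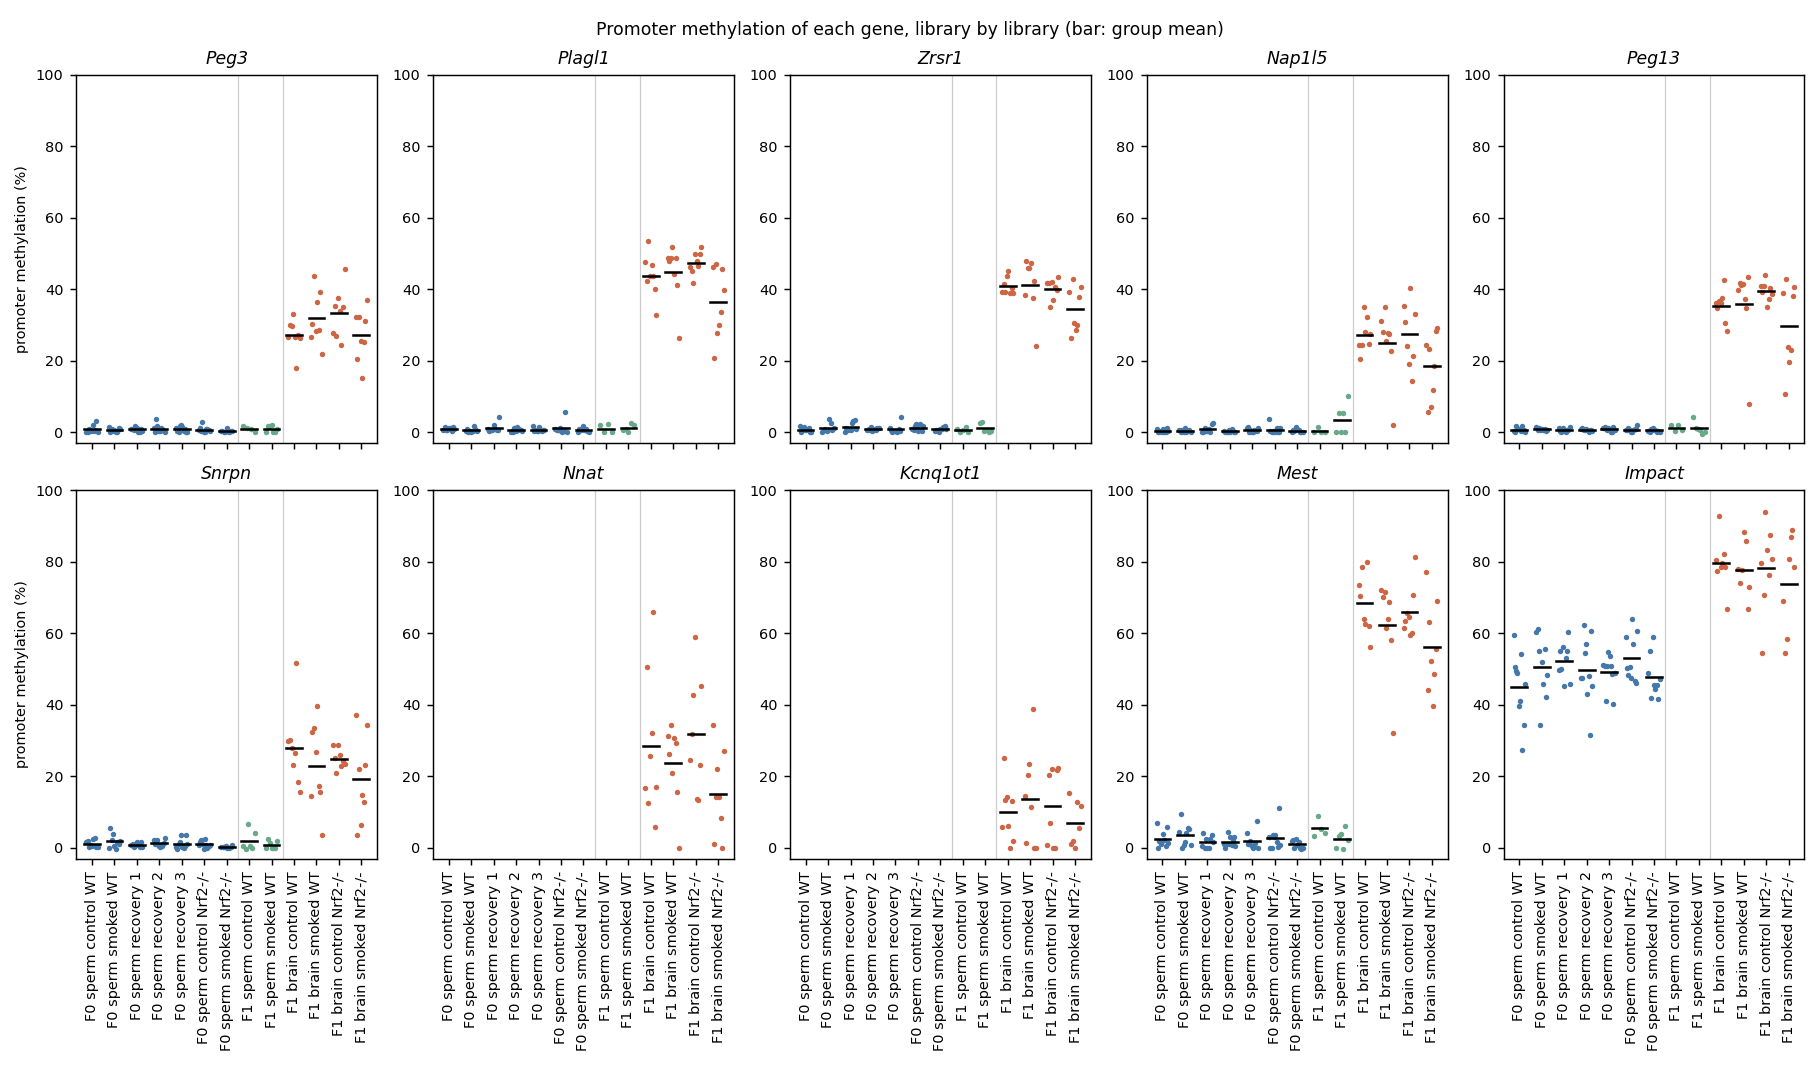
Promoter methylation (percent, vertical axis) of each gene in every library with a value, with the 13 groups along the horizontal axis in the order F0 sperm, F1 sperm and F1 brain. Points are libraries and bars are group means. Peg3, Plagl1, Snrpn, Zrsr1, Nap1l5, Peg13 and Mest lie near 0 in both generations of sperm and between 1.96% and 81.2% in brain, Impact is high in F0 sperm and brain, and Nnat and Kcnq1ot1 have brain values only.

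Ordered by control WT brain, Impact and Mest were followed by Plagl1, Zrsr1, Peg13, Nnat, Snrpn, Peg3, Nap1l5 and Kcnq1ot1. Plagl1 and Zrsr1 differed by less than the SD of Plagl1. Peg13 and Nnat also differed by less than the SD of Nnat, and Nnat, Snrpn, Peg3 and Nap1l5 lay between 27.1% and 28.3% and could not be ordered. The steps from Impact to Mest, from Mest to Plagl1, from Zrsr1 to Peg13 and from Nap1l5 to Kcnq1ot1 exceeded the SD of both genes. Each gene is represented by different cytosines, and the order holds for these only. In F0 sperm of control WT males, Mest, Snrpn, Plagl1, Peg3, Zrsr1, Peg13 and Nap1l5 ran from 2.55% down to 0.392%, and the step from Mest to Snrpn exceeded the SD of Snrpn but not that of Mest. The other neighbours in that order differed by less than the SD of either. Over all genes a promoter near 0 in sperm was common: 80.6% of 20907 windows were under 5% in control WT F0 sperm, 80.9% of 15262 in F1 sperm and 65.003% of 22422 in brain. The combination with an intermediate brain level was not. Of 14554 windows with values in all 3 kinds of sample, 226 (1.55%) were under 5% in both sperm generations and between 20% and 50% in brain.

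Brain was compared with sperm of F1 animals over the cytosines scoreable in both, which left 7 members. limma called 7 of 7 higher in brain in control WT sons, where 27.9% of 14282 windows of all genes were called higher and 34.1% were called in either direction. In smoked WT sons, which share no library with the first comparison, 7 of 7 were again higher, against 33.7% called higher and 39.2% in either direction. The median difference was 28.1 points in control WT and 30.9 points in smoked WT, against 0.302 and 0.439 points over all windows. The number that opens the column headings differs between the sperm and brain tables, and it cannot be told apart from tissue.

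The largest difference was at Mest, with 71.1% in brain against 5.40% in sperm of control WT sons, 65.7 points (95% interval 54.7 to 76.6, limma adjusted p = 1.08e-10). At Mest this covers 4 cytosines ahead of its upstream start only. Its downstream start, scored within 2 kb, had 31.5% in control WT brain and 1.57% in control WT F1 sperm. Plagl1 was higher by 36.2 points (limma adjusted p = 5.11e-08) and Peg13 by 35.5 points (1.18e-06). Snrpn, Peg3, Nap1l5 and Zrsr1 formed a close group, with differences of 28.1, 26.3, 26.2 and 25.2 points and limma adjusted p of 1.72e-08, 1.35e-08, 0.000161 and 3.20e-07. At Zrsr1 this covers 10 of the 53 cytosines scored in brain, with a control WT brain mean of 25.2% there against 40.8% over all 53. In control WT every brain library lay above every sperm library at all 7 genes, as at 22.3% of the windows of all genes. In smoked WT this held for 5 of 7, against 21.5%. The overlaps were at Nap1l5 and Peg13, where column 8 of brain had 2.72% and 5.78% and single sperm libraries reached 10% and 10.2%. Without that library, a choice made after seeing the data, the smoked WT differences were 23.1 points at Nap1l5 and 40.6 points at Peg13, against 20.1 and 36.01 points with it.

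Sperm of the sons was also set against sperm of the preceding generation, over cytosines scoreable in both. limma called 0 of 7 members, none with an unadjusted p under 0.05, while of 13927 windows 9.13% were called and 16.3% had an unadjusted p under 0.05. Differences between control WT F1 and F0 sperm ran from -0.513 points at Zrsr1 to 2.18 points at Mest (95% interval -1.52 to 5.89, limma adjusted p = 0.690), and the libraries of both generations overlapped at every gene. Within 2 kb, 2 of 11 member windows were called, against 16.1% of 16118 windows of all genes. Nap1l5 was then lower in F1 sperm, at 2.25% against 8.78% over 8 cytosines (-6.53 points, limma adjusted p = 0.00177), and Impact lower at 1.18% against 3.31% (-2.14 points, limma adjusted p = 0.0158). Over all its F0 cytosines, Nap1l5 in control WT F0 sperm had 0.392% over 17 within 1 kb and 4.24% over 18 within 2 kb. The higher level in the wider window thus came from beyond 1 kb of the start. Generation, mother's strain and the number that opens the column headings, which differs between F0 sperm, F1 sperm and F1 brain, cannot be told apart in this comparison.

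A promoter average hides how DNAme was laid out along the DNA. Reads were 50 bases long and begin at a cut site, and 184 of the 186 cytosines scored in brain lay within 49 bp after a reference CCGG or TCGA on their own strand. The other 2, 494 and 504 bp into Zrsr1, lay 235 and 245 bp from one and had no value in F0 sperm. Cytosines of a strand that share the nearest cut site before them are called a run here, the 2 distant ones of Zrsr1 included. The plus strand runs from 511 to 529 bp of Zrsr1 hold 1 cytosine each and lie within a read length. Neighbouring runs need not come from separate reads. The 186 cytosines made 54 runs, 41 of them with at least 2 cytosines. Within a run the brain means were close: the median span was 2.35 points and 37 of the 41 spanned under 10 points. The other 4 were both runs of Mest, whose cytosines reached from 52.6% to 80.8%, and 1 run each of Zrsr1 and Peg13.

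Between the means of their runs, some promoters were even and others uneven. The 5 runs of Nap1l5 lay between 21.99% and 26.99%, the 2 of Peg3 at 28.4% and 31.4%, the 4 of Snrpn between 19.4% and 28.2%, and the 2 of Mest at 58.1% and 66.03%. The single runs of Nnat and Kcnq1ot1 allow no such comparison. Plagl1, Zrsr1, Peg13 and Impact were uneven, the last with 66.6% and 98.3% in its 2 runs. The 11 runs of Plagl1 spanned 26.8% to 86.9%, the 7 of Peg13 13.1% to 87.3% and the 19 of Zrsr1 0.974% to 96.3%. The averages of 35.4% to 43.7% of these 3 promoters in control WT brain were therefore means over runs that read low, intermediate and nearly full. Some of these runs read otherwise on the other strand of the same CpG, as given below.

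At Plagl1, the run from 192 to 215 bp past the start stood at 86.9%, next to 47.7% in the run from 147 to 193 bp on the other strand, and it was the higher of the pair in 27 of 28 brain libraries. At Zrsr1, the run between 78 and 123 bp had 13.1% and that between 169 and 215 bp 63.8%, the latter higher in 32 of 32 libraries. Plus strand runs had 92.4% to 96.3% between 494 and 529 bp and 22.5% between 576 and 620 bp. On the minus strand a run from 561 to 577 bp had 61.4%. In Peg13, in the stretch printed above, a run from 550 to 558 bp had 87.3% between one of 13.1% (503 to 540 bp) and one of 36.2% (557 to 606 bp), and it was higher than either in 32 of 32 libraries. Some of these steps lay between strands of a single CpG. The CpG 558 bp into Peg13 had 87.7% on the plus strand and 38.3% on the minus strand, and that at 529 bp of Zrsr1 92.5% and 60.3%. The CpG at 576 bp of Zrsr1 had 23.4% and 63.1%, and that at 192 bp of Plagl1 86.5% and 47.8%. Of 26 CpGs scored on both strands, 20 agree within 5 points and 5 differ by over 10. The sons had CAST/EiJ mothers and cut sites were taken from the reference, and the cause of such steps was not tested. F0 sperm showed no such steps at the cytosines scored there: outside Impact, 171 of 173 had a mean under 5%, and the highest was 5.94%. The small remainder was not even along a read. In 36 of 39 runs with both, the cytosine in the cut site itself was higher than those past it, with means of 1.67% and 0.585%.

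**Figure D2:**
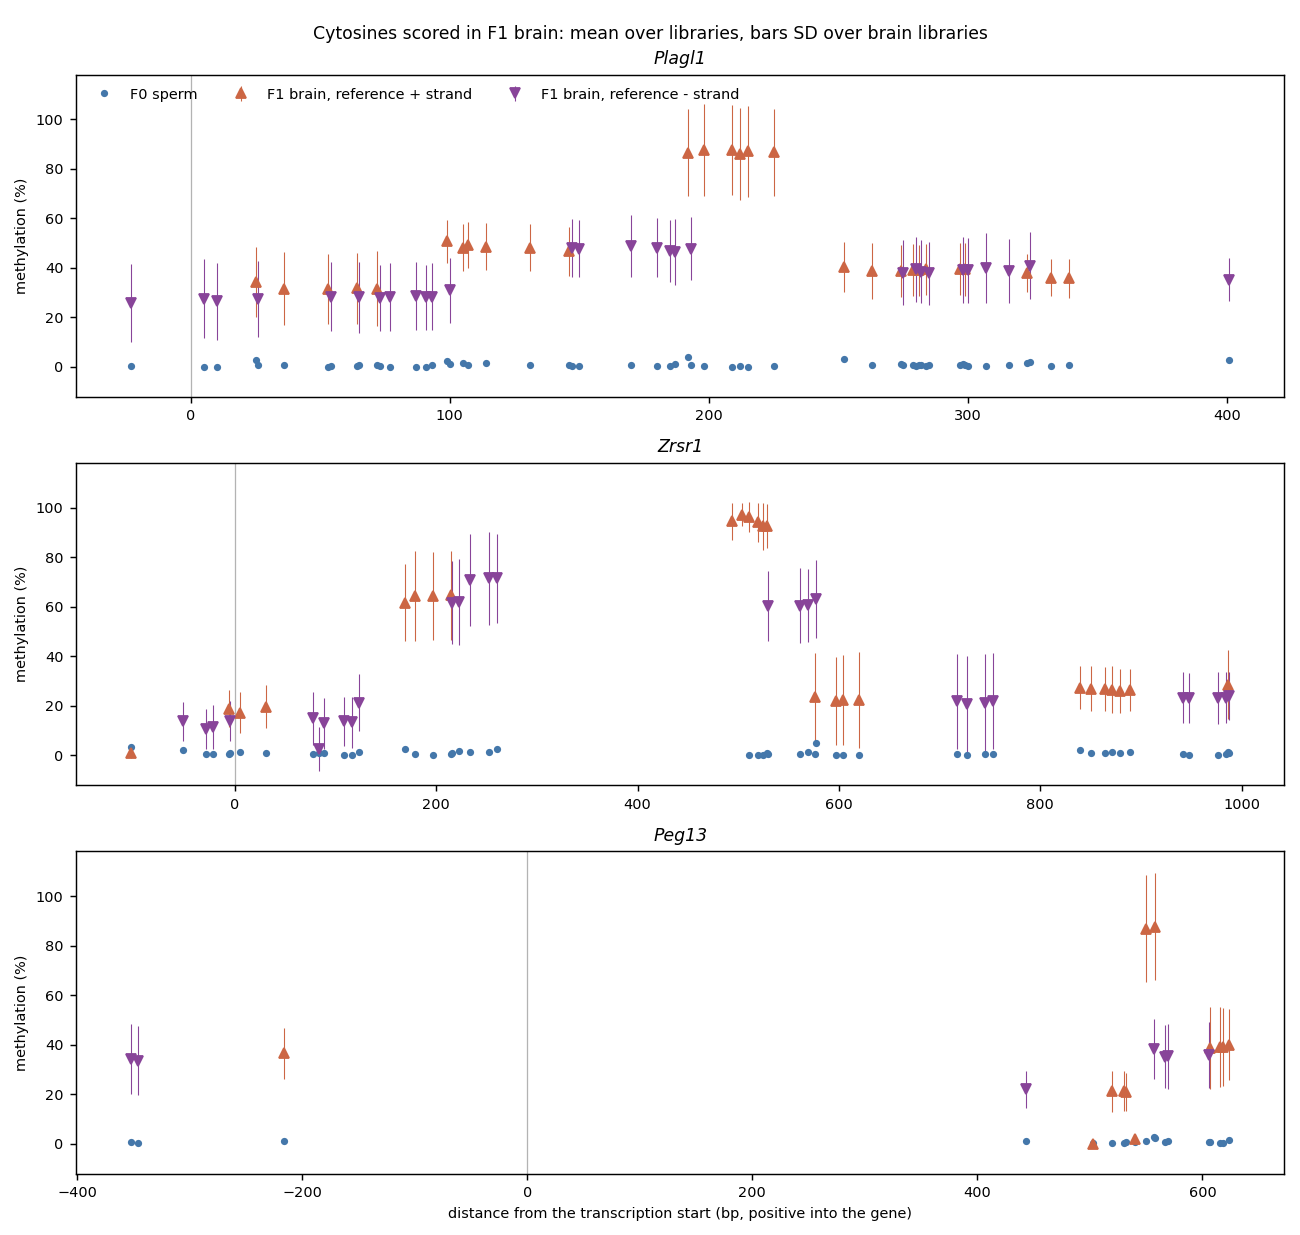
Mean methylation (percent, vertical axis) of each cytosine scored in F1 brain against its distance from the transcription start (bp, positive into the gene) for Plagl1, Zrsr1 and Peg13. Brain symbols differ by reference strand with bars for the SD over brain libraries, and small dots are F0 sperm. Brain runs span 26.8% to 86.9% in Plagl1, 0.974% to 96.3% in Zrsr1 and 13.1% to 87.3% in Peg13, while the F0 sperm dots lie at the bottom of every panel.

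No difference with CS exposure of F0 males passed the test at these promoters. limma called 0 of 8 members in smoked WT and in recovery 1, 2 and 3 against control WT, where 0% of 20907 windows of all genes were called. It called 0 of 8 in control Nrf2-/- against control WT (0.105% of all windows), in smoked Nrf2-/- against control WT (0.124%), in smoked against control Nrf2-/- (0.00478%) and for the smoke change in Nrf2-/- minus that in WT (0%). At an unadjusted p under 0.05 there was 1 member, Impact, in recovery 1 (where 5.18% of all windows were), in control Nrf2-/- against control WT (6.21%) and for the difference between genotypes (3.74%). There was none in smoked WT (4.19%), recovery 2 (4.45%) and recovery 3 (5.57%), in smoked Nrf2-/- against control WT (6.47%) and in smoked against control Nrf2-/- (4.83%). The 7 members near 0 had narrow intervals. In smoked against control WT their differences ran from -0.347 points at Plagl1 (95% interval -1.19 to 0.5004) to 0.983 points at Mest (-1.10 to 3.07), which leaves room for changes of at most a few points.

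Differences were wider at the 3 partly methylated cytosines of Impact. Control Nrf2-/- sperm stood at 52.96% ± 6.502 (n = 10; 46.04% to 63.9%) against 45.1% ± 9.58 in control WT (n = 10; 27.5% to 59.4%), and 10 of 10 libraries lay above the control WT mean. The difference of 7.88 points (95% interval 1.36 to 14.4) did not pass adjustment (limma adjusted p = 0.680). Recovery 1 was higher than control WT by 7.19 points (limma adjusted p = 0.931). The smoke change in Nrf2-/- minus that in WT was -10.7 points (limma adjusted p = 0.999). Groups overlapped in each case. In smoked against control Nrf2-/- sperm all 8 members had lower means, with a median of -0.427 points against -0.0475 over all windows, and none had an unadjusted p under 0.05.

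In F1 sperm, sons of smoked WT and control WT sires differed at 0 of 7 members by limma (0% of 15262 windows called), and none had an unadjusted p under 0.05 (5.47% of all windows). The widest differences were at Nap1l5, 3.43% ± 4.13 (n = 6) against 0.397% ± 0.794 (n = 4), a difference of 3.03 points (95% interval -1.51 to 7.57), and at Mest, 2.51% ± 2.41 (n = 6) against 5.40% ± 2.38 (n = 4), a difference of -2.89 points (-6.19 to 0.417). The other 5 lay between -1.06 and 0.538 points.

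In F1 brain no difference with paternal CS in WT passed the test. limma called 0 of 10 in smoked against control WT (0% of 22422 windows) and 0 of 10 in control Nrf2-/- against control WT (0.00892%), and in both no member had an unadjusted p under 0.05, against 2.82% and 18.3% of all windows. The differences in WT ran from -6.08 points at Mest to 4.63 at Peg3, with 5 members lower and 5 higher. Column 8 of smoked WT was the lowest library of its group at 8 of 10 members and shared the lowest value, 0%, with column 7 at Kcnq1ot1. Without the 4 low libraries the differences were -1.79 points at Mest and 6.06 points at Peg3, and Nap1l5 went from -2.14 to 1.14 points. Peg3 then had an unadjusted p under 0.05 in smoked WT (4.19% of all windows) and in control Nrf2-/- (19%) against control WT, and neither passed adjustment (limma adjusted p = 0.99992 and 0.256). For control Nrf2-/- against control WT the largest was again at Peg3, 33.3% against 27.2%, or 6.09 points (95% interval -0.435 to 12.6, limma adjusted p = 0.286).

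Sons of smoked Nrf2-/- sires had the lowest brain mean of the sire groups at 9 of 10 members, all but Peg3, and no difference passed adjustment. Against control Nrf2-/- all 10 members had lower means, with a median difference of -7.41 points, and limma called 0 of 10 (0% of 22422 windows), with 5 members and 6.32% of all windows at an unadjusted p under 0.05. These 5 were Nnat, Nap1l5, Plagl1, Zrsr1 and Peg13. Plagl1 ranged from 20.7% through a median of 36.8% to 47.04% in smoked Nrf2-/- and from 41.8% through 47.2% to 51.9% in control Nrf2-/- sons. All 8 smoked libraries lay below the control mean, although the groups overlapped, and the difference was -11.1 points (95% interval -18.3 to -3.84, limma adjusted p = 0.513). Nnat was lower by 16.5 points in the mean (15.1% against 31.7%; 95% interval of the difference -32.1 to -1.002, limma adjusted p = 0.758). Peg13, Nap1l5 and Zrsr1 had differences of -9.89, -8.83 and -5.62 points, with limma adjusted p of 0.7098, 0.777 and 0.777.

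Against control WT, smoked Nrf2-/- sons were lower at 9 of 10 members, with a median of -6.86 points, against 0.320 over all windows. limma called 0 of 10 there (0.0223% of all windows), with 4 members, Mest, Nap1l5, Plagl1 and Zrsr1, and 17.1% of all windows at an unadjusted p under 0.05. Mest had the largest of these 4 differences at -12.2 points (95% interval -22.9 to -1.43, limma adjusted p = 0.273), and Peg3 was level at 0.102 points. Without the 4 low libraries 8 of 10 members were lower, with a median of -2.20 points, 0 of 10 were called (0.0178% of all windows), and none of the 4 kept an unadjusted p under 0.05, nor had any other member one (8.8% of all windows). The smoke change in Nrf2-/- sires' sons minus that in WT sires' sons was below 0 at all 10 members, with a median of -7.66 points against -0.177 over all windows. limma called 0 of 10 (0% of all windows), with Plagl1 (-12.03 points, limma adjusted p = 0.689) and Peg3 (-10.6 points, 0.696) at an unadjusted p under 0.05, as were 6.15% of all windows. Without the 4 low libraries it was below 0 at 9 of 10 members, with a median of -6.17 points, and again 0 of 10 were called (0.00446% of all windows). Plagl1 (-8.50 points, limma adjusted p = 0.768) and Peg13 (-7.48 points, 0.824) were then under an unadjusted 0.05, as were 5.7% of all windows, and Peg3, at -7.87 points (95% interval -16.7 to 0.985), was not. These comparisons share the smoked Nrf2-/- libraries. Of the windows of all genes, 65.003% were under 5% in control WT brain, with little room to fall, and windows of like level are given below.

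The lower values moved with 3 of the 8 smoked Nrf2-/- libraries. In the 4 low brain libraries together, the median over the members other than Impact was 7.94% to 23.9%, against 23.04% to 43.3% in the 28 others. Plagl1 and Nap1l5 were below all 28 others in 4 of 4, Zrsr1, Peg13, Mest and Snrpn in 3 of 4, Peg3 in 1, and Impact in none. At Nnat and Kcnq1ot1 the lowest of the 28 others was at 0%, so no library could lie below them all. Kcnq1ot1 had 0% to 0.952% in the 3 low libraries with a value, against a median of 12.3% in the others. Nnat had 0% to 21.9% in the 4, against a median of 26.1%. Non-members of like level were lower too, but the 4 libraries were picked for a low overall mean, and lower values elsewhere follow in part from that choice. In 461 windows of other genes, under 5% in control WT F0 sperm and between 20% and 50% in control WT brain, the 4 libraries had means of 24.7% to 26.6% against 28.3% to 35.4%. Windows above 80% had 85.8% to 88.9% against 88.03% to 91.6%. Of the 8 listed germline genes, 7 had a lower median in these libraries, Mael from 1, Hormad1 from 2 and Sycp3 from 3 of the 4. Tdrd1 lay below all others (52.4% to 59.9% against 62.6% to 83.6%), Ddx4 overlapped them (32.98% to 56.6% against 46.8% to 73.0%), Slc25a31 lay within their range (81.8% to 91.4% against 75.7% to 94.3%), and Asz1 had the higher median (96.9% in the 2 libraries with a value, against 93.7%). What part this has in the differences was not tested.

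**Figure D3:**
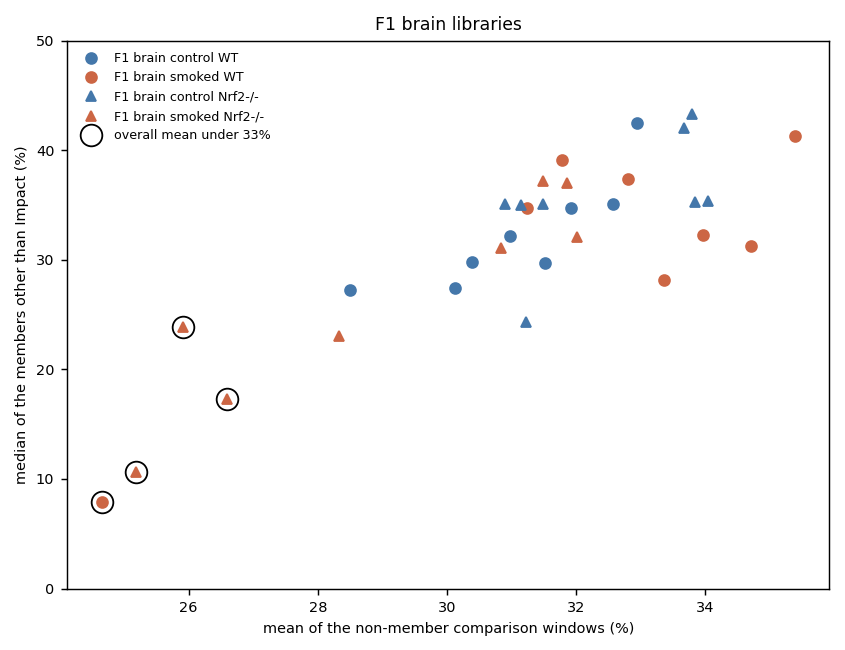
Each point is an F1 brain library, with the mean of the 461 comparison windows of other genes on the horizontal axis and the median of the members other than Impact on the vertical axis (both in percent). Symbols give the sire group, and open rings mark the 4 libraries with an overall mean under 33%. The ringed libraries lie at 24.7% to 26.6% on the horizontal axis, left of all 28 others, and between 7.94% and 23.9% on the vertical axis.

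Without the 4 libraries the differences between smoked and control Nrf2-/- sons shrank at every member. These libraries were picked for a low overall mean and control Nrf2-/- held none of them, so leaving them out favours smaller differences. Plagl1 went to -4.94 points (95% interval -10.3 to 0.433), Peg13 to -2.90, Nap1l5 to -2.63 and Zrsr1 to -2.06. Snrpn changed sign, from -5.66 to 0.952 points. Nnat hardly moved, at -14.9 points (-32.8 to 2.98). Again 0 of 10 were called (0% of all windows), and none had an unadjusted p under 0.05 (4.12%). Against control WT, Plagl1 was then at -1.27 points and Mest at -5.68. Over the 461 comparison windows with all libraries, the median difference between smoked and control Nrf2-/- sons was -2.47 points and 82.9% were lower, against -0.0908 points over all windows. Over the same 461 windows the median for smoked Nrf2-/- against control WT was -1.37 points, with 68.98% lower. For the smoke change in Nrf2-/- minus that in WT it was -3.28 points, with 83.3% lower.

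**Figure D4:**
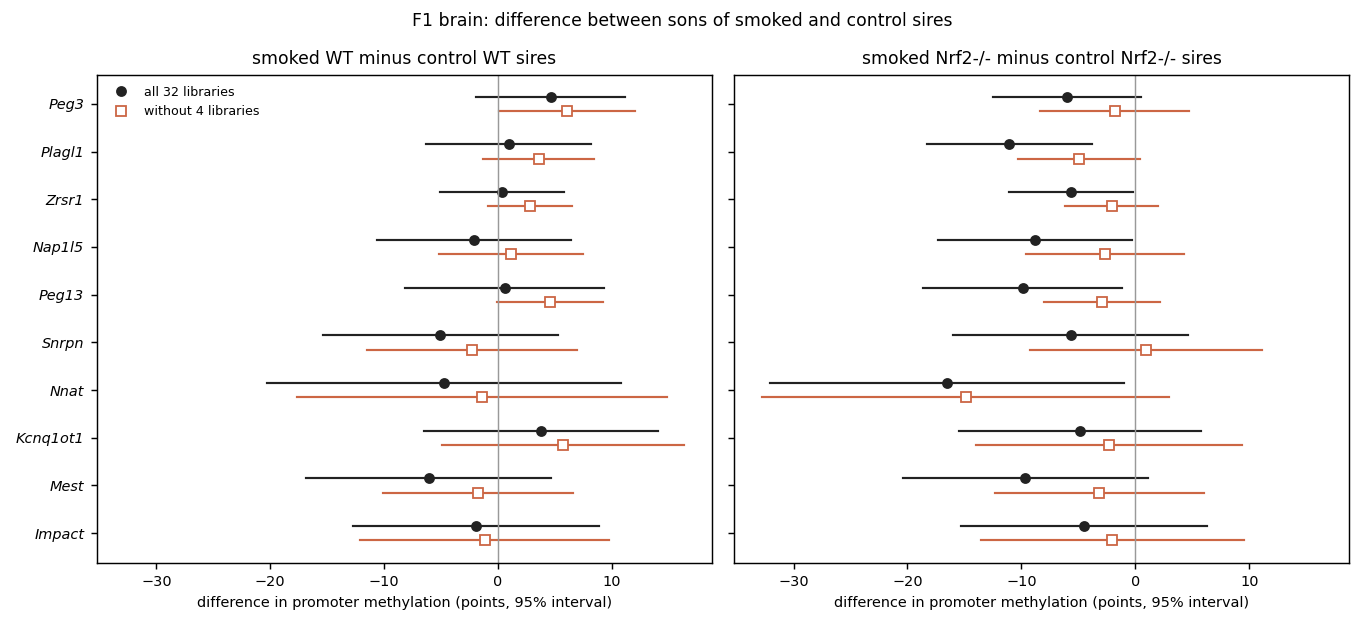
Difference in promoter methylation (points, horizontal axis, with 95% intervals) between F1 brain of sons of smoked and control sires for each gene, in WT and in Nrf2-/-. Dark circles use all 32 libraries and open squares leave out the 4 with the lowest overall mean. In Nrf2-/- all 10 circles lie left of 0, from -16.5 to -4.53 points, and the squares lie closer to 0, from -14.9 to 0.952 points.

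Other imprinted genes were read the same way. The list of other maternally methylated genes went by gene name. It includes genes around members, such as Commd1 and Blcap, so a tested window need not be a maternally methylated promoter. Of 23 tested windows of 18 genes of this list, limma called 15 higher and 1 lower in brain than in sperm of control WT sons (median difference 7.85 points). In smoked WT sons it called 15 higher and 0 lower. Among them Snurf shares its window with Snrpn, and Usp29 its first window with Peg3. In control WT sons, Slc38a4 had both the largest rise, from 3.36% to 71.0% at its start near 97055956 of chromosome 15, and the called fall, from 94.7% to 86.6% at another start. Gnas rose from 1.67% to 44.03% near 174297859 of chromosome 2. The tested host genes did not pass: Commd1, around Zrsr1, had 2.66% in brain against 1.06% in sperm, and Blcap, around Nnat, 1.14% in brain against 1.1998% in sperm. Of paternally methylated genes, 2 of 2 tested windows were called higher in brain, H19 with 21.4% against 1.44% and Zdbf2 with 1.404% against 0.411%. That list goes by gene name, and both windows were low in sperm and so went against the label there. Neither imprint maintenance factors (0 of 5 windows, Dnmt1, Dnmt3a, Uhrf1, Zfp57 and Zfp445, the highest 1.21% at Dnmt1 in sperm) nor housekeeping genes (0 of 5) passed. In the CS and genotype comparisons of every kind of sample 0 windows of these lists were called, listed germline genes included.

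The genes whose profile was nearest that of the members were found from the 13 group means. The profile was the median of Mest, Plagl1, Zrsr1 and Peg13, the members of 30% to 70% in control WT brain, and 14554 windows were compared. The 10 nearest genes were Pcdha12, Gm10545, Gm26796, Gm15645, Gm15643, Ptchd3, Gm27741, Fbxl19, Mir8110 and Shroom3, at a mean absolute difference of 0.698 to 1.23 points. Gm27741 overlaps the Plagl1 window, and Gm15643 and Ptchd3 share a window. Pcdha12, a protocadherin of neurons, had 1.02% in control WT F0 sperm, 0.490% in F1 sperm and 42.3% in brain. Among members, Plagl1 and Zrsr1 were 0.690 and 0.693 points from the profile, Peg13 1.98, Peg3 3.64, Nap1l5 5.57, Snrpn 5.65 and Mest 7.84. In all, 180 windows lay within 5 points, so genes outside the list come near the profile. Most of the 13 groups are sperm, where low values are common, and a window within 5 points can differ by more in brain.

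The windows of 2001 bp around the starts were searched for TGCCGC on both strands (GCGGCA on the other). It was found in 9 of the 12 member windows, against 28.26% of 60791 windows of all genes. Snrpn had 10 matches at its scored start, the downstream start of Mest 12 and its scored upstream start 1. Nnat, Peg3, Plagl1 and Peg13 had 6 each, Nap1l5 5 and Kcnq1ot1 3, while the windows of Zrsr1 and Impact and the other window of Snrpn held none. At least 3 matches stood in 3.724% of all windows. Member windows held 8 to 110 CpGs, against a median of 24 over all genes, and a match describes the letters only.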

How the data were processed

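RRBS libraries of F0 sperm (67), F1 sperm (13) and F1 brain (32) were analysed. Per the submitters' processing notes and the study's methods, the authors aligned reads to mm10 with Bismark (version not given in the sources used here). They deposited 1 table per group with a methylation percent for each CpG position and library, without read counts, so the study's own filter (coverage above 8 in at least 4 replicates) could not be repeated. Column headings match no replicate label, so columns were assigned to groups only, and 0 columns were left unused.

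Windows of 1 kb on each side of GENCODE M21 starts (GRCm38.p6) were formed for all genes, and overlapping windows of a gene were merged. A cytosine needed a value in at least 4 libraries of each group, a window at least 3 such cytosines, and a library a value at 50% of them. Library values are means adjusted for missing cytosines. limma 3.58.1 (R 4.3.3) was fitted across all windows with plain empirical Bayes moderation, separately for F0 sperm, F1 sperm, F1 brain, both F1 tissues and both sperm generations. Tests were two-sided, with Benjamini-Hochberg adjustment over all windows of a comparison and a threshold of 0.05. The labels do not say whether all samples were separate animals, nor which sons shared a sire or litter. The p-values therefore measure the spread between these samples and, in F1, not the spread between sires. The procedure was tested on simulated data and missed part of the changes put in, so a promoter that was not called can still differ.

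All 10 listed genes are named in every kind of sample, Nnat, Kcnq1ot1 and Impact in F1 sperm only within 2 kb. Other genes are named from the 10 nearest profiles or from lists of imprinted, germline, maintenance and housekeeping genes. Single cytosines, runs and libraries were picked out after their values were seen. The members and lists were chosen with earlier results of these data known. Alternatives changed the window, the cytosines required, the averaging, the moderation, the scale and the libraries. The number of positions with a value stands in for depth. The read depth, and so the counting error of a percent, is unknown.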

Additional observations from a re-analysis of the deposited data

Results flagged for a closer look

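Of 110 sets of a gene and a group with 4 to 10 libraries, 18 held a library that stood apart from the rest of its group by Dixon's criterion. By chance it flags about 1 in 20 groups of independent, normally distributed values, or 5.5 here. The sets share libraries across genes and many sperm values lie at the floor, so 18 cannot be read as an excess over chance. F0 sperm held 9 of these, F1 sperm 2 and F1 brain 7.

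In F0 sperm the library that stood apart was always the highest. In control Nrf2-/-, Mest reached 11.1% in column 9 (next library 3.70%) and Plagl1 5.53% in the same column (next 1.32%), Nap1l5 3.77% in column 1 (next 1.26%) and Peg3 2.86% in column 4 (next 1.24%). Peg3 reached 3.84% in recovery 2 (next 1.74%) and 1.14% in smoked Nrf2-/- (next 0.481%). Plagl1 reached 4.16% in recovery 1 (next 2.17%) and 1.86% in smoked Nrf2-/- (next 0.843%), and Zrsr1 4.23% in recovery 3 (next 1.10%). In F1 sperm, Nap1l5 was at 1.59% in 1 control WT library and at 0% in the others, and Peg13 at 4.39% in smoked WT column 1 (next 1.27%).

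In F1 brain, column 8 of smoked WT was the lowest at Mest with 32.2% (next library 58.1%), Nap1l5 with 1.96% (next 22.7%), Plagl1 with 26.4% (next 41.2%), Zrsr1 with 24% (next 37.5%) and Peg13 with 7.94% (next 34.8%). It is 1 of the 4 libraries with a low overall mean. Column 6 of control WT was the lowest at Peg3 with 18% (next 26.3%) and the highest at Snrpn with 51.6% (next 30.3%). For 0 members did every smoked library move one way in WT and the other way in Nrf2-/-.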

How the results depend on the processing

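Of the 17 comparisons, 15 called 0 members, and 451 alternatives to these with a member to test, single libraries left out included, also called 0. The 1 exception was the sperm generations within 2 kb, with 2 (16.1% of all windows). The tissue counts were 0 when cytosines needed a value in every library (0 member windows left to test, as also for paternal smoke in F1 sperm and for the sperm generations), 4 of 4 within 500 bp (22.7% and 27.2% of all windows called) and 11 of 11 within 2 kb (45.1% and 49.2%), in control WT and in smoked WT. All 322 alternative tissue differences that could be computed passed in the same direction (lowest 17.1 points, highest limma adjusted p 0.00558). Leaving out 1 library at a time gave 0 to 0 calls in those 15 comparisons and 7 to 7 in both tissue comparisons.

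Of 575 alternative group levels, 36 moved by more than the SD, 24 of them within 2 kb. In control WT these were, within 2 kb, Impact in F0 sperm (5.72%) and brain (22.3%), Nap1l5 in F0 (4.24%) and F1 sperm (2.00%) and Kcnq1ot1 in brain (20.9%). Mest, with a second window within 2 kb, was not counted there, and its upstream window stood at 5.04% in F0 sperm. Within 500 bp they were Zrsr1 (37.98%) and Peg13 (28.1%) in brain. Zrsr1 was 35.7% with cytosines that have a value in every library, and Peg13 29.8% with cytosines of at least 2 libraries a group. The cause was not tested.

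Signs of single-gene differences were followed for those named with a limma adjusted p or as the widest of their comparison, and for every member in the tissue and smoked Nrf2-/- brain comparisons. Differences near 0 that were not followed can change sign too. In F0 sperm, smoked against control WT, Plagl1 was 0.115 points with cytosines that have a value in every library. Between sperm generations, Zrsr1 was 0.0678 points with cytosines of at least 2 libraries a group. In smoked Nrf2-/- brain against control WT, Peg13 was 1.70 points within 500 bp and 1.29 without the 4 low libraries, and Peg3 was -0.528 points with array weights, -0.0179 on the logit scale and -1.28 to 1.85 points with single libraries left out (below 0 in 6 of 16: -1.21, -0.0238, -0.587, -0.580, -0.439 and -1.28). Against control Nrf2-/-, Impact was 1.05 points with array weights and Snrpn 0.952 without the 4 low libraries. No paired analysis was possible because the column headings carry no replicate numbers.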
